A study of Homo sapiens with 12 samples.

Results

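The genes described here are 35 conjugation enzymes of phase II drug metabolism and the suppliers of activated sulfate, chosen by symbol from the 57500 Ensembl genes counted in every library. They fall into 15 glutathione transferases and related proteins, 7 UDP-glycosyltransferases listed under glucuronidation, 8 genes of sulfation and 5 of acetylation, methylation and epoxide hydrolysis. No measured value entered the choice of members, although earlier results of these data were known when the list was drawn up. RNA sequencing had been done on HepG2, a human hepatocellular carcinoma line, in 12 libraries, with 4 replicates for each of 3 groups. WT cells carried no change in thiosulfate sulfurtransferase (TST), shTST cells had TST silenced by a short hairpin RNA, and overTST cells overexpressed TST. All groups were kept for 24 h in ordinary medium holding 400 µM glycine. TST, also called rhodanese, moves sulfur from thiosulfate to cyanide, and the study set up these lines to lower or raise that activity.

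The lines were made with lentiviral particles. The overexpression construct held a codon-optimized, tagged TST coding sequence behind the CMV promoter in a vector with blasticidin resistance, so its transcripts need not be counted on the native gene. The shTST cells received a purchased hairpin plasmid. The control named for the sequencing was wild-type cells, and a line with an empty vector or an unrelated hairpin was not analysed here, so effects of transduction and selection cannot be told apart from effects of TST. The series calls the replicates independent.

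Phase II enzymes join a polar group to a drug, a hormone or a reactive intermediate, which makes the product easier to excrete. Glutathione transferases attach the tripeptide glutathione to electrophiles, UDP-glucuronosyltransferases add glucuronic acid from UDP-glucuronic acid, and sulfotransferases add sulfate from the donor PAPS. Smaller classes acetylate amines, methylate sulfur, oxygen or nitrogen, or open epoxides with water. The liver is the main site of these reactions, and hepatoma lines are known to keep some of the enzymes and to lose others.

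Library totals ran from 22911380 to 45120508 counts. Each overTST library had a lower total than each WT library, with means of 25337792 and 34761853.5 counts (p = 0.0286 in an exact, two-sided permutation test, the lowest value possible with 4 libraries a group). Genes of the mitochondrial genome made up 10.8% to 11.7% of the counts in overTST, 6.91% to 11.98% in WT and 6.84% to 8.65% in shTST. The shTST replicate 2 library had counts on 24354 genes, the most of the 12 libraries. Levels below are in CPM, counts divided by the TMM-scaled library total and put on one scale for all 12 libraries, and a call means an adjusted p of 0.05 or less in edgeR's quasi-likelihood test with Benjamini-Hochberg adjustment over all genes tested. TST itself had 47.2, 47.5, 52.8 and 48.5 CPM in WT, 33.0, 33.6, 36.6 and 33.5 CPM in shTST and 51.8, 56.0, 61.6 and 62.1 CPM in overTST. It was lower in shTST (log2 fold change −0.52 ± 0.0549 (SE), adjusted p = 3.20e-06) and higher in overTST (0.24 ± 0.0620, adjusted p = 0.00384), although with offsets for gene length the latter value was 0.097, adjusted p = 0.201.

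Hepatocyte genes were expressed, with ALB, the serum albumin gene, at 5738 CPM in WT. The 9 hepatocyte markers summed to 23459 to 26453 CPM in WT, 24690.2 to 28945 in shTST and 21721 to 26239 in overTST. Of these 9, FGB, AFP, ALB and TF were higher and TTR and APOB lower in shTST, while APOA1 and TTR were higher and APOB and HNF4A lower in overTST. The 11 markers of leukocytes, endothelium, mesenchyme and bile ducts summed to 645 to 699 CPM in WT, 613 to 713 in shTST and 648 to 761 in overTST, nearly all of it from KRT19, EPCAM and ACTA2, and the leukocyte marker PTPRC had no count in WT or overTST. KRT19, a bile duct marker, had 497 to 540 CPM in WT, above the hepatocyte markers HNF4A, FGB and TTR and below the others of that list. EPCAM was called higher in shTST and PECAM1 and ACTA2 in overTST. Whether these shifts in marker levels bear on the conjugation genes was not tested.

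Of the 35 members, 28 had enough counts to be tested. GSTO1, which reduces dehydroascorbate and other substrates with glutathione, had the highest level per length, 115 ± 7.22 CPM per kilobase of exon in WT (SD, n = 4). EPHX1, the microsomal epoxide hydrolase, followed at 79.7 ± 2.47, and SULT2A1, the sulfotransferase of dehydroepiandrosterone and bile acids, at 42.6 ± 1.39. GSTA1, the main hepatic alpha-class transferase, at 33.8 ± 3.07, and UGT2B10, a glucuronosyltransferase of nicotine and tertiary amine drugs, at 30.7 ± 3.12, came next, and their WT libraries overlapped. PAPSS1, which makes the sulfate donor PAPS, had 23.7 ± 0.839 CPM per kilobase. At the other end of the tested genes stood GSTO2 at 0.363 ± 0.0444 and SULT1E1, the oestrogen sulfotransferase, at 0.335 ± 0.103, whose libraries also overlapped. The first 5 places held the same genes in WT, shTST and overTST. The exonic length deposited with the counts covers all annotated exons of a gene, so that long, rarely used exons lower this quantity.

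**Figure D1:**
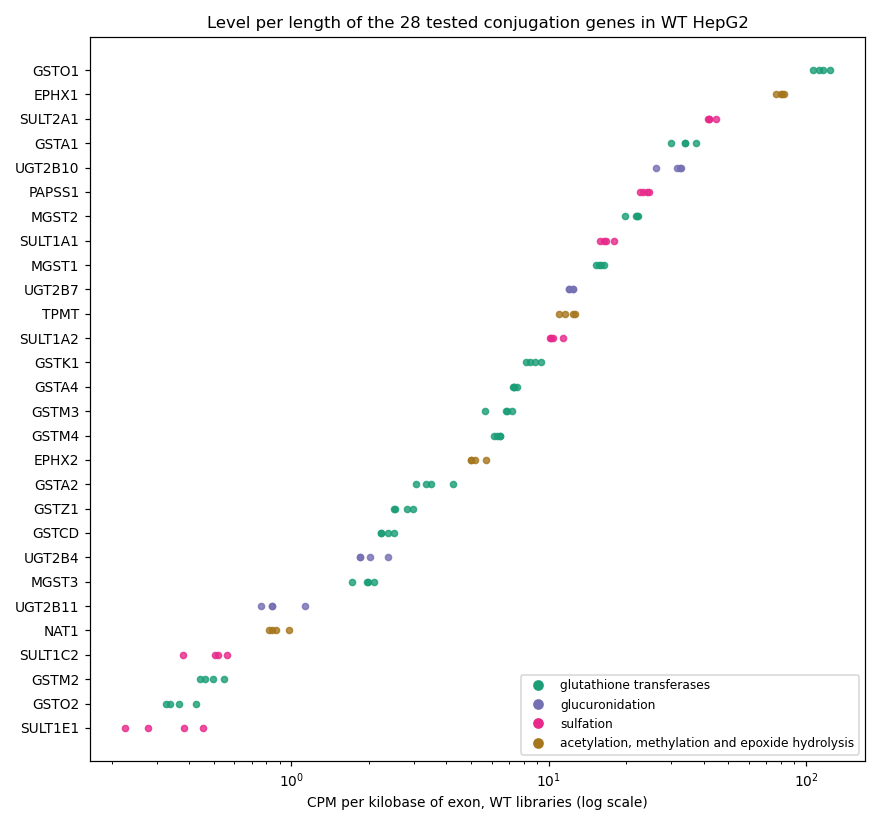
Level of each of the 28 tested conjugation genes in the 4 WT libraries, in CPM per kilobase of exon on a log axis, with 1 point per library and colours for the classes. GSTO1 and EPHX1 stand above all other members, and 6 genes from UGT2B11 downwards lie near or below 1 CPM per kilobase.

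The other 7 members fell below the filter on low counts in every comparison. GSTP1, the pi-class transferase that is silent in normal hepatocytes, had 3 counts in all 12 libraries together. NNMT, which methylates nicotinamide, had 1, and the glycosyltransferases UGT2B15 and UGT3A1 had 4 each. A count of 0 in a library allows a level of up to 0.0659 to 0.136 CPM (3 counts, counting error only). PAPSS2, the second PAPS synthase, had 58 counts, SULT1B1, a sulfotransferase of thyroid hormones and phenols, had 71, and UGT1A1, the bilirubin glucuronosyltransferase, had 93. For UGT1A1, 49.9% of the exonic length is shared with other UGT1A genes on the same strand, and how reads on shared exons were assigned is not given in the sources used here. Its highest value was 0.549 CPM.

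In shTST, 5 of the 28 tested members were called against WT (17.9%), beside 16.1% of all 14584 genes tested. GSTA1, GSTA4 and UGT2B10 were higher (10.7%, beside 6.69% of all genes), and GSTO1 and EPHX1 were lower (7.14%, beside 9.4%). In overTST, 14 of the 28 were called (50%), beside 33.9% of all 14421 genes tested. Of these, 12 were higher (42.9%, beside 15.7% of all genes) and GSTCD and UGT2B4 were lower (7.14%, beside 18.2%). The 4 libraries of each group did not overlap for 7 of the 28 members in shTST (25%, beside 19.1% of all genes) and for 12 in overTST (42.9%, beside 30.4%). The median log2 fold change of the 28 members was 0.026 in shTST and 0.14 in overTST, where the medians of all genes tested were 0.0040 and 0.0019. Called changes were small, with folds of 1.13 to 1.26 in shTST and 1.11 to 1.57 in overTST in either direction, and UGT2B4 in overTST was the 1 member past 1.5-fold. Both comparisons used the same 4 WT libraries. In bulk RNA, a change in the share of cells that use a gene and a change in RNA per cell cannot be told apart.

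The count in overTST moved with the processing. It was 9 with no filter on low counts, where GSTA4, GSTM4, GSTZ1, SULT1A2 and TPMT were lost and 15.4% of all genes were called. With offsets for gene length it was 10, beside 28.5% of all genes. When each library was left out in turn it was 9 to 14, the lowest without overTST replicate 4, where 28.1% of all genes were called. Upper-quartile in place of TMM scaling gave 16 calls in overTST (beside 34.6% of all genes) and 7 in shTST (beside 16.7%), and it raised the share of higher genes among all calls in shTST from 41.6% to 52.7%. Among the members, the higher calls with that scaling were 5 of 7 in shTST and 14 of 16 in overTST.

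Compared directly, shTST and overTST differed in 12 of the 28 members (42.9%, beside 33% of 14883 genes). Of them, 9 had the lower level in shTST (32.1%, beside 16.1% of all genes), and GSTCD, UGT2B4 and UGT2B10 had the higher (10.7%, beside 16.9%).

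**Figure D2:**
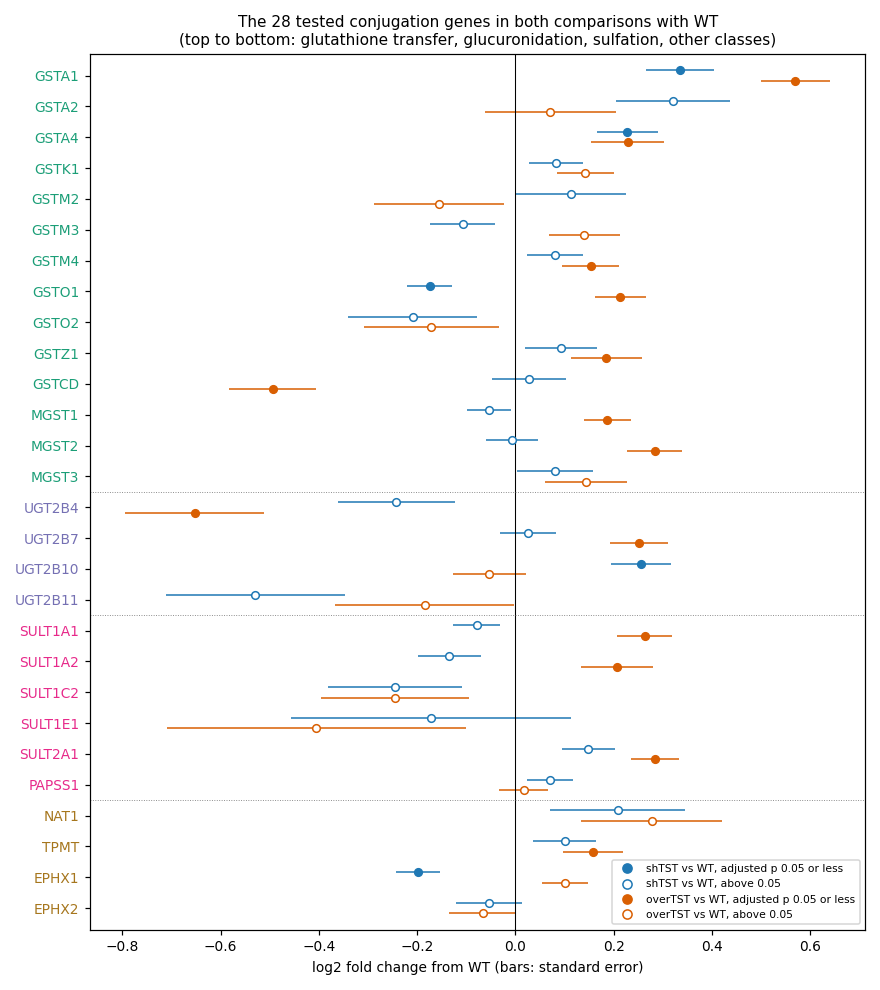
Log2 fold change from WT, with its standard error, of the 28 tested conjugation genes in shTST (blue) and overTST (orange), in the order of the classes. Filled points have an adjusted p of 0.05 or less, which holds for 5 genes in shTST and 14 in overTST, and the lowest value is that of UGT2B4 in overTST.

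Of the 14 glutathione transferases tested in overTST, GSTA1, GSTA4, GSTM4, GSTO1, GSTZ1, MGST1 and MGST2 were higher (50%, beside 15.7% of all genes) and GSTCD was lower (7.14%, beside 18.2%). The class had a median log2 fold change of 0.15. Differences in the share of calls between classes were not tested. In shTST, GSTA1 and GSTA4 were higher (14.3%, beside 6.69% of all genes) and GSTO1 lower (7.14%, beside 9.4%), with a class median of 0.080. Summed over the 15 genes, the class held 579.7 to 628 CPM in WT, 579.6 to 603 in shTST and 672 to 710.2 in overTST, and GSTO1 and MGST1 are the largest parts of that sum.

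GSTA1 (chr6:52791664-52803910, minus strand, GRCh38) conjugates electrophilic drugs and products of lipid peroxidation. Its level was 34.7, 30.5, 34.5 and 38.2 CPM in the WT libraries, 45.2, 38.6, 47.8 and 41.8 in shTST and 46.5, 51.3, 49.7 and 56.9 in overTST. All libraries of both lines lay above those of WT. The log2 fold change was 0.33 ± 0.0696, adjusted p = 0.00239 in shTST and 0.57 ± 0.0702, adjusted p = 1.78e-06 in overTST, a rise of 1.26-fold and 1.48-fold. The level in shTST was below that in overTST by the direct test (−0.24 ± 0.0716, adjusted p = 0.0131), a call that was lost without shTST replicate 2 (−0.18, adjusted p = 0.0656), without overTST replicate 4 (−0.18, adjusted p = 0.0715) and with length offsets (−0.090, adjusted p = 0.317). GSTA1 has the shortest exonic length of all members, 1019 bases, and with length offsets its value in overTST was 0.39, adjusted p = 5.90e-05.

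GSTA2 (chr6:52750089-52763569) is a nearby alpha-class gene, and its values were 5.57, 4.39, 4.01 and 4.57 CPM in WT, 5.94, 5.26, 5.48 and 6.47 in shTST and 5.001, 3.90, 4.97 and 5.59 in overTST. The groups overlapped, and neither comparison with WT was called (0.32 ± 0.116, adjusted p = 0.0632 in shTST and 0.070 ± 0.133, adjusted p = 0.723 in overTST, or −0.11, adjusted p = 0.603 with length offsets). Between the lines the value was 0.25 ± 0.125, adjusted p = 0.130, and 0.39, adjusted p = 0.0222 with length offsets. In shTST GSTA2 was called higher with upper-quartile scaling, without WT replicate 1 and with the replicate number as a block (0.32, adjusted p = 0.0433). Whether the change of GSTA2 differed from that of GSTA1 was not tested. The coding sequences of GSTA1 and GSTA2 in GENCODE 29 are identical at 647 of 669 bases, with a longest shared run of 209 bases, so reads from shared stretches could have been split between them or left out. Their upstream sequences are also alike. The 250 bases before the RefSeq start match at 243 positions when set side by side without gaps, and both hold an HNF1 half-site, the letters GTTAAT on the opposite strand, with its first base at position −180. HNF1 factors are hepatocyte transcription factors. The windows around that match are shown because they come from near-identical genes. In the main fits GSTA1 was called in both lines and GSTA2 in neither, and no link of this to the windows was tested. The windows lie at chr6:52803971-52804016 for GSTA1 and chr6:52763630-52763675 for GSTA2 (GRCh38.p14, minus strand, 5′ to 3′), with the half-site in capitals as it reads on the gene's strand.

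GSTA1: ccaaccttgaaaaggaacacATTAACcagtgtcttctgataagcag
GSTA2: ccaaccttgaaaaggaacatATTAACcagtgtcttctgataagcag

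The 2 windows differ by 1 substitution, C20T, with the GSTA1 base first and positions counted from 1 at the 5′ end of the window. A half-site on either strand was present in 22.9% of the 35 promoters of the 27 members with a RefSeq entry and in 6.88% of all 35116 promoters of the same length. MGST1 entered with promoters from different starts that hold the same sites. Counted by gene, a half-site was in 2259 of 27305 genes and in 7 of the 27 members, which were GSTA1, GSTA2, GSTCD, MGST1, SULT1E1, UGT1A1 and UGT3A1. Of the 5 tested genes among these, GSTA1 and MGST1 were higher and GSTCD lower in overTST, beside 15.7% and 18.2% of all genes. In shTST GSTA1 was higher and none was lower, beside 6.69% and 9.4% of all genes. Whether calls went with the half-site was not tested. A match describes the letters and does not show that a factor is bound.

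GSTA4 (chr6:52977948-52995378, minus strand) removes 4-hydroxynonenal, a product of lipid peroxidation. It had 16.0, 15.9, 15.8 and 16.4 CPM in WT, 18.7, 18.4, 19.3 and 18.7 in shTST and 20.1, 17.4, 17.6 and 19.96 in overTST. The WT libraries lay within a narrow range, and every library of both lines was above it. The log2 fold change was 0.23 ± 0.0624, adjusted p = 0.0152 in shTST and 0.23 ± 0.0746, adjusted p = 0.0200 in overTST. In overTST the call was lost without overTST replicate 1 (0.19, adjusted p = 0.0600), without overTST replicate 4 (0.20, adjusted p = 0.0709) and with length offsets (0.10, adjusted p = 0.340). The value in shTST kept its call with length offsets (0.21, adjusted p = 0.0197) and missed it with no filter on low counts (0.22, adjusted p = 0.0505).

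GSTO1 (chr10:104235356-104267459, plus strand) moved in opposite directions in the 2 lines. The levels were 181, 189.6, 209.7 and 197 CPM in WT, 172, 175, 171 and 170.3 in shTST and 214, 228, 237 and 222 in overTST. The shTST libraries lay below those of WT and the overTST libraries above. It was lower in shTST (−0.17 ± 0.0454, adjusted p = 0.0112) and higher in overTST (0.21 ± 0.0515, adjusted p = 0.00230). Between the lines the difference was −0.39 ± 0.0471, adjusted p = 1.85e-06, and it was called in each of the other settings and leave-one-out fits. With length offsets the value in overTST was 0.055, adjusted p = 0.404, while the difference between the lines was −0.25, adjusted p = 8.65e-05. GSTO2 (chr10:104268873-104304945), its neighbour on the same strand, ranged over 2.75 to 4.22 CPM and was not called against WT (−0.21 ± 0.132 in shTST and −0.17 ± 0.137 in overTST).

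The GSTO1 promoter holds the core of the antioxidant response element, TGACNNNGC, at 2 places upstream of its RefSeq start (positions −226 and −161). These windows are shown because GSTO1 was the only member called in opposite directions in the main fits against WT. The element is known as the binding site of NRF2 with small MAF proteins. The windows lie at chr10:104254646-104254694 and chr10:104254711-104254759 (GRCh38.p14, plus strand), with the core in capitals. The GSTP1 window at chr11:67583726-67583774 (plus strand) is given beside them because GSTP1 holds the core at position −66 and had almost no counts.

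GSTO1, distal: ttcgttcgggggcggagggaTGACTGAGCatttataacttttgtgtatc
GSTO1, proximal: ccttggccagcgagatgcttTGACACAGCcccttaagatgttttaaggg
GSTP1: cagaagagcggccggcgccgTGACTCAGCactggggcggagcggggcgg

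The core was found on either strand in 8 of the 27 members (EPHX1, GSTA4, GSTO1, GSTP1, MGST1, SULT1C2, UGT2B10 and UGT2B11), or 22.9% of their 35 promoters, and in 13.3% of all promoters. Of these 8 genes, GSTP1 was not tested. In shTST GSTA4 and UGT2B10 were higher and GSTO1 and EPHX1 lower, beside 6.69% and 9.4% of all genes. In overTST GSTA4, GSTO1 and MGST1 were higher and none was lower, beside 15.7% and 18.2% of all genes. Whether calls went with the core was not tested. The core of the xenobiotic response element, GCGTG, the site of the AHR and ARNT pair, was in 22.9% of the members' promoters and 36.5% of all.

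The microsomal transferases MGST1 and MGST2 were higher in overTST and were not called in shTST. MGST1 (chr12:16347142-16609259), which protects membranes of the endoplasmic reticulum and mitochondria, had 119, 114, 122 and 117 CPM in WT, 120.2, 107, 111 and 116 in shTST and 139.8, 129, 137 and 131 in overTST. All overTST libraries exceeded those of both other groups. MGST2 (chr4:139665768-139740745), which can also make leukotriene C4, had 63.1, 70.4, 70.5 and 69.8 CPM in WT, 71.4, 62.3, 68.1 and 70.7 in shTST and 76.4, 88.2, 85.1 and 83.6 in overTST, again with overTST above all other libraries. The log2 fold changes in overTST were 0.19 ± 0.0487, adjusted p = 0.00425 for MGST1 and 0.28 ± 0.0554, adjusted p = 3.55e-04 for MGST2, and in shTST they were −0.054 ± 0.0456 and −0.0075 ± 0.0525. Both were lower in shTST than in overTST (−0.24 ± 0.0469, adjusted p = 3.30e-04 for MGST1 and −0.29 ± 0.0551, adjusted p = 2.56e-04 for MGST2). With length offsets the value of MGST1 in overTST was 0.28, adjusted p = 7.72e-05. MGST3, a related microsomal enzyme, had 16.3, 17.2 and 17.9 CPM on average in WT, shTST and overTST and was not called against WT (0.14 ± 0.0835, adjusted p = 0.199 in overTST), and with length offsets the value in overTST was 0.26, adjusted p = 0.0239. For MGST2, 7.92% of the exonic length overlaps MAML3 on the other strand, and whether the counting was stranded is not given in the sources used here.

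GSTCD (chr4:105708778-105847728), a protein with a transferase-like C-terminal domain, was the 1 member of the class that was lower in overTST. It had 15.01, 14.0, 15.7 and 14.0 CPM in WT, 16.9, 14.3, 14.5 and 14.2 in shTST and 11.8, 9.997, 10.7 and 9.05 in overTST. The overTST libraries lay below all libraries of both other groups, with a log2 fold change from WT of −0.49 ± 0.0884, adjusted p = 1.37e-04, and the value in shTST was 0.027 ± 0.0751. In the direct comparison GSTCD was higher in shTST (0.52 ± 0.0863, adjusted p = 6.65e-05). The calls of GSTCD were made in each alternative setting and with each library left out. Antisense and opposite-strand exons (GSTCD-AS1 and INTS12) overlap 6.26% of its exonic length.

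GSTM4 (chr1:109656081-109674836), a mu-class enzyme, and GSTZ1 (chr14:77320884-77331597), the maleylacetoacetate isomerase of tyrosine breakdown, had the largest adjusted p values of the called genes of the class in overTST. GSTM4 had 35.3, 34.3, 33.6 and 35.5 CPM in WT, 35.2, 37.9, 39.5 and 33.9 in shTST and 36.9, 38.5, 40.4 and 38.5 in overTST, with overTST above WT. GSTZ1 had 21.4, 21.1, 23.8 and 25.2 CPM in WT, 21.6, 26.7, 25.3 and 23.8 in shTST and 24.4, 27.7, 25.6 and 26.3 in overTST, with 1 overTST library inside the WT range. The log2 fold changes in overTST were 0.15 ± 0.0580, adjusted p = 0.0445 for GSTM4 and 0.18 ± 0.0718, adjusted p = 0.0492 for GSTZ1. Leaving out single libraries gave adjusted p values of 0.0272 to 0.148 for GSTM4, where the call was made only without overTST replicate 1, and 0.0223 to 0.148 for GSTZ1, where it was lost without WT replicates 1 or 2 or without overTST replicates 2, 3 or 4.

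The remaining tested transferases were not called against WT in the main fits. GSTK1, a peroxisomal and mitochondrial transferase, had 36.8 CPM in WT, 39.0 in shTST and 40.6 in overTST on average, with overTST libraries above those of WT (0.14 ± 0.0584, adjusted p = 0.0627). GSTK1 was called higher in overTST with upper-quartile scaling, a stricter filter on low counts, or the shTST libraries in the fit. The same held without WT replicate 3 and with length offsets and the replicate number as a block (0.15, adjusted p = 0.0451). GSTM3, a mu-class enzyme, had 31.6, 29.2 and 34.7 CPM and was lower in shTST than in overTST (−0.25 ± 0.0671, adjusted p = 0.00569). Against WT it was called higher in overTST with length offsets and that block (0.17, adjusted p = 0.0387). In shTST it was called lower without WT replicate 2. GSTM2, another mu-class enzyme, ranged over 3.21 to 5.01 CPM, with values of 0.11 ± 0.112 in shTST and −0.16 ± 0.133 in overTST, and shares 7.12% of its exonic length with GSTM1 and GSTM4.

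**Figure D3:**
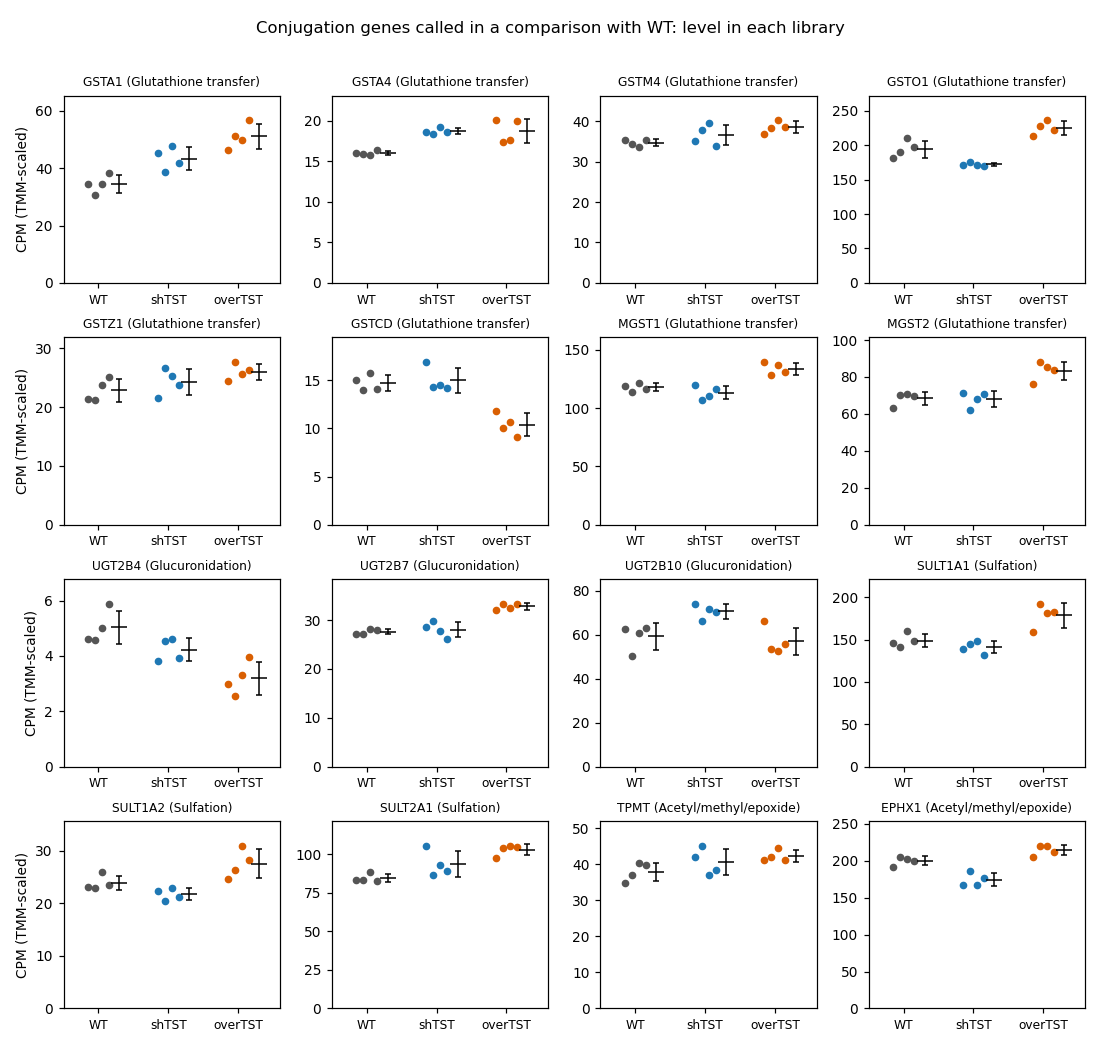
TMM-scaled CPM in each of the 12 libraries for the 16 conjugation genes called in at least 1 comparison with WT, 1 panel per gene with an axis from 0, with the mean and SD (n = 4) beside the points of each group. GSTO1 shows shTST below and overTST above WT, GSTA1 and GSTA4 show both lines above WT, and GSTCD and UGT2B4 show overTST below.

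Of the glucuronidation genes, 4 of 7 were tested, all of the UGT2B cluster on chromosome 4, and they did not move together. UGT2B7 was higher and UGT2B4 lower in overTST (25% each, beside 15.7% and 18.2% of all genes). UGT2B10 was higher in shTST (25%, beside 6.69% of all genes). The class median was −0.11 in shTST and −0.12 in overTST, and the summed level was 84.4 to 99.9 CPM in WT, 102 to 108 in shTST and 90.9 to 103 in overTST, most of it UGT2B10.

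UGT2B4 (chr4:69480165-69526014), which conjugates bile acids and oestrogen catechols, had 4.61, 4.59, 5.03 and 5.89 CPM in WT, 3.83, 4.56, 4.61 and 3.92 in shTST and 2.99, 2.54, 3.32 and 3.95 in overTST. The overTST libraries were below all WT libraries, and those of shTST lay between and overlapped with both. UGT2B4 had a log2 fold change of −0.65 ± 0.141, adjusted p = 9.17e-04 in overTST, a level 0.636 times that of WT, and −0.24 ± 0.119, adjusted p = 0.173 in shTST. The call in overTST was made in each alternative setting. The direct difference between shTST and overTST (0.41 ± 0.140, adjusted p = 0.0259) was lost without shTST replicates 2 or 3 or overTST replicates 1 or 2 (leave-one-out adjusted p 0.0101 to 0.108).

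UGT2B7 (chr4:69051363-69112987), the main glucuronosyltransferase of morphine, had 27.1, 27.2, 28.1 and 27.97 CPM in WT, 28.6, 29.9, 27.7 and 26.2 in shTST and 32.0, 33.4, 32.5 and 33.4 in overTST. All overTST libraries were above those of both other groups. It was higher in overTST by 0.25 ± 0.0596, adjusted p = 0.00205 on the log2 scale, and 0.13, adjusted p = 0.0908 with length offsets. In shTST it was 0.026 ± 0.0577, and the lines differed by −0.23 ± 0.0568, adjusted p = 0.00331, or −0.12, adjusted p = 0.122 with length offsets.

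UGT2B10 (chr4:68815993-68831196) had 62.7, 50.3, 60.8 and 63.1 CPM in WT, 74.0, 66.2, 71.8 and 70.2 in shTST and 66.0, 53.4, 52.7 and 55.7 in overTST. The shTST libraries were above every WT library, with a log2 fold change of 0.26 ± 0.0616, adjusted p = 0.00665. In overTST the libraries overlapped with WT (−0.053 ± 0.0743, adjusted p = 0.619), although the value was −0.19, adjusted p = 0.0548 with length offsets and −0.20, adjusted p = 0.00671 with length offsets and the replicate number as a block, where it was called lower. The level in shTST exceeded that in overTST (0.31 ± 0.0700, adjusted p = 0.00140). UGT2B11 (chr4:69199951-69214731), a close relative with little known activity, had 1.97, 1.78, 1.97 and 2.64 CPM in WT, 1.65, 1.44, 1.51 and 1.16 in shTST and 1.98, 1.99, 1.86 and 1.45 in overTST. Its shTST libraries were below all WT libraries, and the adjusted p was 0.0501, just outside the threshold, at a log2 fold change of −0.53 ± 0.182. With length offsets the value was −0.54, adjusted p = 0.0389. UGT2B11 was also called lower with no filter or a stricter filter on low counts, the overTST libraries in the fit, or mitochondrial genes left out. The same held without WT replicate 2 and with length offsets and the replicate number as a block (−0.54, adjusted p = 0.0437). With that block alone UGT2B11 was not called (−0.53, adjusted p = 0.0566). A gene on the other strand overlaps 17.9% of its exonic length.

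The coding sequences of UGT2B10 and UGT2B11 are 95.02% identical, those of UGT2B7 and UGT2B10 92.9% and those of UGT2B4 and UGT2B7 90.5%, so part of their reads may fit more than 1 of them. UGT2B10 and UGT2B11 both carry the antioxidant response element core on the opposite strand, with its first base at positions −213 and −217 from their RefSeq starts, and the windows are shown because the values of the 2 genes in shTST had opposite signs. They lie at chr4:68815761-68815809 (plus strand) and chr4:69214937-69214985 (minus strand), with the core in capitals as it reads on the gene's strand.

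UGT2B10: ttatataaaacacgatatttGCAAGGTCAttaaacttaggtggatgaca
UGT2B11: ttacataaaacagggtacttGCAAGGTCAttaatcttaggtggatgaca

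These windows differ by 5 substitutions, none within the core, which are T4C, C13G, A15G, T18C and A34T, with the UGT2B10 base first and positions counted from the 5′ end of the window.

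In the main fits against WT, sulfation genes were called only in overTST. Of 6 tested, SULT1A1, SULT1A2 and SULT2A1 were higher there (50%, beside 15.7% of all genes), with a class median of 0.11. None was called in shTST by edgeR's quasi-likelihood test in the main fit, beside 16.1% of all genes, and the median was −0.11. With an unadjusted p, 2 of the 6 were under 0.05 in shTST. DESeq2 called SULT2A1 there (0.15, adjusted p = 0.0481), while limma-voom called none. By edgeR's test SULT2A1 was also called there with upper-quartile scaling, a stricter filter on low counts or mitochondrial genes left out. The same held with the replicate number as a block (0.14, adjusted p = 0.0310) and without WT replicate 3 or shTST replicate 2. With length offsets alone it was not called (0.13, adjusted p = 0.0769). The class summed to 331 to 361 CPM in WT, 335 to 355 in shTST and 369 to 406 in overTST.

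SULT1A1 (chr16:28605196-28623625), the main phenol sulfotransferase of the liver, had 146, 141, 159.8 and 149 CPM in WT, 139, 144, 148 and 132 in shTST and 159, 192, 181 and 182 in overTST. In overTST, 3 libraries were above all others, and replicate 1 lay just inside the WT range. The log2 fold change in overTST was 0.26 ± 0.0562, adjusted p = 8.19e-04, or 0.39, adjusted p = 4.61e-05 with length offsets. The value in shTST was −0.078 ± 0.0477, and the lines differed by −0.34 ± 0.0545, adjusted p = 4.52e-05.

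SULT1A2 (chr16:28591943-28597109), the adjacent phenol sulfotransferase, had 23.2, 23.0, 26.0 and 23.6 CPM in WT, 22.4, 20.5, 23.0 and 21.1 in shTST and 24.6, 26.4, 31.0 and 28.3 in overTST. Its overTST and WT libraries overlapped, and the log2 fold change was 0.21 ± 0.0735, adjusted p = 0.0325. That call was lost without WT replicates 1, 2 or 4 or overTST replicates 3 or 4 (leave-one-out adjusted p 0.00693 to 0.177) and with length offsets (0.086, adjusted p = 0.371). The difference between the lines was larger, −0.34 ± 0.0710, adjusted p = 6.14e-04, and its libraries did not overlap. SULT1A1 and SULT1A2 share 860 of 888 coding bases and a run of 128, and reads from shared stretches could have been split between them or left out.

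SULT2A1 (chr19:47870466-47886397) had 83.5, 83.5, 88.7 and 82.7 CPM in WT, 106, 86.7, 93.2 and 89.4 in shTST and 97.6, 104, 105 and 105 in overTST. Every overTST library was above every WT library, and the shTST libraries spread across both. Its log2 fold change was 0.28 ± 0.0493, adjusted p = 1.01e-04 in overTST, 0.14, adjusted p = 0.0184 with length offsets, and 0.15 ± 0.0538, adjusted p = 0.0632 in shTST. PAPSS1 had 82.4, 86.4 and 83.3 CPM on average in WT, shTST and overTST and was not called (0.070 ± 0.0471 and 0.017 ± 0.0505). SULT1C2, a sulfotransferase of phenols and N-hydroxyarylamines, ranged over 2.77 to 4.72 CPM, with values of −0.24 ± 0.136 in shTST and −0.25 ± 0.150 in overTST. SULT1E1 had 0.424 to 1.05 CPM, the only tested member under 1 CPM on average, and its values of −0.17 ± 0.285 and −0.41 ± 0.305 were not called.

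Among the other conjugation enzymes, EPHX1 was lower in shTST (25% of those tested, beside 9.4% of all genes). TPMT was higher in overTST (25%, beside 15.7%). EPHX1 (chr1:225810092-225845563), which opens epoxides of drugs and aromatic hydrocarbons, had 191, 206, 203 and 199.9 CPM in WT, 168, 186, 167 and 176 in shTST and 205, 219, 220.4 and 212 in overTST. The shTST libraries were below all others, and overTST overlapped with WT. The log2 fold change was −0.20 ± 0.0445, adjusted p = 0.00421 in shTST and 0.10 ± 0.0467, adjusted p = 0.0996 in overTST, and the lines differed by −0.30 ± 0.0453, adjusted p = 2.57e-05. EPHX1 was called higher in overTST with upper-quartile scaling. With length offsets its value in overTST was −0.0027, adjusted p = 0.972.

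TPMT (chr6:18128311-18155074), which methylates thiopurine drugs, had 34.8, 36.9, 40.3 and 39.7 CPM in WT, 42.1, 45.2, 37.0 and 38.4 in shTST and 41.2, 42.1, 44.6 and 41.2 in overTST. The overTST libraries were narrowly above those of WT, and the log2 fold change was 0.16 ± 0.0607, adjusted p = 0.0466. It was lost without WT replicates 1 or 2 or overTST replicates 2, 3 or 4 (leave-one-out adjusted p 0.0301 to 0.167) and with length offsets (0.10, adjusted p = 0.201). NAT1, an arylamine acetyltransferase, had 2.77, 3.23 and 3.37 CPM on average in WT, shTST and overTST, and EPHX2, the soluble epoxide hydrolase, had 23.3, 22.4 and 22.2. Neither was called, with values of 0.21 ± 0.138 and 0.28 ± 0.144 for NAT1 and −0.054 ± 0.0676 and −0.067 ± 0.0684 for EPHX2 in shTST and overTST.

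Set side by side in the main fits, GSTA1 and GSTA4 were called higher in both lines and GSTO1 was called in opposite directions. In these fits UGT2B10 and EPHX1 were called in shTST only, and 11 members in overTST only, of which 9 were higher. For GSTCD, MGST1, MGST2, UGT2B4, UGT2B7, UGT2B10, SULT1A1, SULT1A2 and EPHX1 the direct test also called a difference between the lines. For GSTM4, GSTZ1, SULT2A1 and TPMT it did not in the main fit (adjusted p = 0.354, 0.352, 0.0528 and 0.525). SULT2A1 was called lower in shTST than in overTST with DESeq2, limma-voom, RLE or upper-quartile scaling, or a stricter filter on low counts. The same held with the replicate number as a block (−0.14, adjusted p = 0.0388) and without shTST replicate 1 or overTST replicate 1. With length offsets its value was −0.0082, adjusted p = 0.925. GSTZ1 was called lower with length offsets and that block (−0.20, adjusted p = 0.0285). GSTA4 had nearly the same mean in both lines, 18.8 and 18.8 CPM, and a difference of −0.00076 with a 95% interval of −0.13 to 0.13 on the log2 scale.

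Gene length bore on the overTST values. The length offsets remove, from each library, the trend of its log2 ratio to the mean library on exonic length. With them, the 9 calls of GSTA1, GSTM4, GSTZ1, GSTCD, MGST1, MGST2, UGT2B4, SULT1A1 and SULT2A1 were made again, those of GSTA4, GSTO1, UGT2B7, SULT1A2 and TPMT were not, and MGST3 was added. Short genes such as GSTA1, GSTO1 and SULT2A1 moved down and long ones such as SULT1A1, MGST1 and GSTZ1 (0.30, adjusted p = 0.00326) moved up. In shTST the offsets left all 5 calls in place and added UGT2B11.

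**Figure D4:**
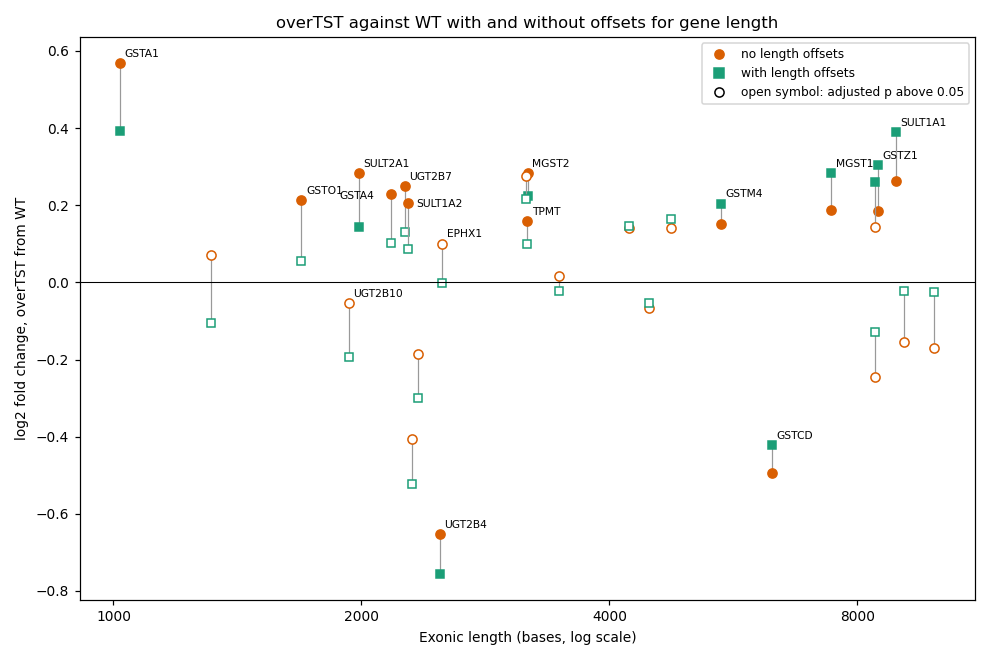
Log2 fold change from WT in overTST against exonic length (log axis) for the 28 tested members, with circles for the values without length offsets, squares for those with them and a line joining both values of a gene. Filled symbols have an adjusted p of 0.05 or less, 14 without and 10 with the offsets, and the shorter genes move down while the longer ones move up.

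The surroundings of these enzymes were described with 10 further lists of 84 genes (81 found by symbol), which hold other family members, suppliers of the cofactors, hydrolases that remove the conjugates, and regulators. Of the 45 tested in each comparison with WT, 3 were higher and 8 lower in shTST, beside 6.69% and 9.4% of all genes. In overTST 3 were higher and 11 lower, beside 15.7% and 18.2%. Of 46 tested between the lines, 14 were higher and 7 lower in shTST, beside 16.9% and 16.1%. The called gene with the smallest p is named for the lists described below.

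Glutathione supply, with 4 of 5 genes tested, had 2 lower in shTST, led by GCLM (−0.20 ± 0.0583, adjusted p = 0.0224), the modifier subunit of glutamate-cysteine ligase. In overTST 1 was higher and 2 lower, led by its catalytic subunit GCLC (−0.20 ± 0.0572, adjusted p = 0.00745). Between the lines 2 were lower in shTST, led by GGT1, which cleaves extracellular glutathione (−0.26 ± 0.0592, adjusted p = 0.00118). For UDP-glucuronic acid, all 4 listed genes were tested. SLC35D1, which carries UDP-glucuronic acid into the endoplasmic reticulum, was the 1 higher in shTST (0.20 ± 0.0533, adjusted p = 0.0123). In overTST 1 was higher and 2 lower, led by UGDH, the dehydrogenase that makes UDP-glucuronic acid (−0.31 ± 0.0537, adjusted p = 1.08e-04), and between the lines 2 were higher and 1 lower in shTST, led by SLC35D1 (0.37 ± 0.0559, adjusted p = 2.41e-05).

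Of the 7 genes for PAPS and sulfate, 2 were lower in shTST, led by the sulfate transporter SLC26A1 (−0.21 ± 0.0615, adjusted p = 0.0211), and 1 was lower in overTST, the sulfate transporter SLC26A2 (−0.26 ± 0.0948, adjusted p = 0.0357). Between the lines 1 was higher and 1 lower in shTST, led by SLC26A1 (−0.17 ± 0.0607, adjusted p = 0.0309). Among the 4 genes for S-adenosylmethionine, the donor of methyl groups, MAT2A, a synthetase of this donor, was the 1 called against WT. It was higher in shTST (0.22 ± 0.0561, adjusted p = 0.0109) and lower in overTST (−0.22 ± 0.0531, adjusted p = 0.00263), and it led the 2 genes higher in shTST between the lines (0.43 ± 0.0565, adjusted p = 4.78e-06), where 1 was lower. Of the 5 deconjugating hydrolases, 2 were lower in shTST, led by the sulfatase ARSA (−0.22 ± 0.0639, adjusted p = 0.0211). None was called in overTST or between the lines by edgeR's quasi-likelihood test, nor by DESeq2 or limma-voom, and 1 of them in each comparison had an unadjusted p under 0.05 by edgeR's test.

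All 12 regulators were tested. In shTST 1 was higher and 2 lower, led by the hepatocyte factor FOXA2 (−0.26 ± 0.0549, adjusted p = 0.00288), with KEAP1, the repressor of NRF2, as the other lower gene (−0.20 ± 0.0469, adjusted p = 0.00566) and the bile acid receptor NR1H4 as the higher one (0.22 ± 0.0541, adjusted p = 0.00665). In overTST 4 were lower, led by PPARA, the fatty acid receptor (−0.43 ± 0.0648, adjusted p = 2.25e-05), with NFE2L2, which encodes NRF2 (−0.21 ± 0.0535, adjusted p = 0.00372), HNF4A, also on the hepatocyte list (−0.15 ± 0.0454, adjusted p = 0.0125) and ARNT (−0.18 ± 0.0645, adjusted p = 0.0308). Between the lines 5 were higher and 1 lower in shTST, led by PPARA (0.34 ± 0.0619, adjusted p = 1.79e-04). The genes beyond the leading ones were named after their values were seen.

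Few of the other family members were expressed. None of the 10 other glutathione transferases and related proteins found was tested against WT, and 1 was tested between the lines and not called. Of 13 other UDP-glycosyltransferases, UGT2A3 alone was tested, and it was lower in overTST (−0.29 ± 0.0826, adjusted p = 0.00807) and higher in shTST than in overTST (0.43 ± 0.0814, adjusted p = 2.48e-04). Of 7 other sulfotransferases, 2 were tested and not called. Of 14 other acyl, methyl and hydrolase enzymes, 6 were tested.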

How the data were processed

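RNA-seq of 12 HepG2 libraries had been trimmed with Trimmomatic 0.36, aligned with STAR 2.5.2b to GRCh38 and counted with featureCounts (Subread 1.5.2) before deposit, according to the submitters' processing notes, and the deposited values are whole-number counts per Ensembl gene, not normalized by the authors. The annotation release, the use of strand and the handling of reads that fit several genes are not given in the sources used here. Symbols were matched for 56410 of the 57500 gene IDs. Each line was compared with WT on its 8 libraries, and the lines with each other in a fit of all 12, by edgeR 4.0.16 (R 4.3.3): TMM factors, filterByExpr, the quasi-likelihood test, Benjamini-Hochberg adjustment over all genes tested and a call at 0.05 or less. The fits were tested on simulated data. The SE of a log2 fold change is its absolute value divided by the square root of F. CPM uses TMM factors of all 12 libraries.

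Members and lists were chosen with earlier results of these data known. Every member was named, with the value in every library for those of at least 1 CPM called against WT, and of each further list the called gene with the smallest p was named per comparison, except that 1 list's called genes are not reported here. Single values per library were compared by exact permutation tests. Alternatives were DESeq2 1.42.0, limma 3.58.1 (voom), other scalings and filters, length offsets (lowess, span 0.3), the replicate number as a block, each library left out and a 1.5-fold minimum. Promoters (250 bases before to 50 after a start, RefSeq on GRCh38.p14) were found for 27 of the 35 members, and not for EPHX2, MGST2, NAT1, NNMT, PAPSS2, SULT1A1, SULT1A2 and UGT2B4. Coding identity and overlaps of exons came from GENCODE 29 and the deposited exon coordinates, and 33 of the 35 members had the same start and end in both. Library totals of 22911380 to 45120508 counts set the precision, and floors cover counting error only.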

Additional observations from a re-analysis of the deposited data

Results flagged for a closer look

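In 12 of 101 groups of 4 libraries, each holding the values of 1 member in 1 group, a single library stood apart from the other 3 by Dixon's gap-to-range ratio at its 95% critical value. Chance gives such a result in about 1 of 20 groups. Of the 12, 6 came from members with almost no counts, where 1 library had a count and the others had none. These were GSTP1 in WT replicate 2 (0.0220 CPM), shTST replicate 4 (0.0332) and overTST replicate 4 (0.0455), UGT2B15 in overTST replicate 1 (0.0373), UGT3A1 in shTST replicate 2 (0.0670) and NNMT in shTST replicate 2 (0.0335). PAPSS2 had 0.306 CPM in WT replicate 3, against 0.123 to 0.153 in the other WT libraries.

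Among the tested members, GSTCD had 16.9 CPM in shTST replicate 1, against 14.2 to 14.5 in the other shTST libraries, and MGST2 had 63.1 CPM in WT replicate 1, against 69.8 to 70.5. SULT2A1 stood apart in WT replicate 3, with 88.7 CPM against 82.7 to 83.5, and in overTST replicate 1, with 97.6 CPM against 104 to 105. NAT1 had 4.03 CPM in overTST replicate 1, against 3.09 to 3.18. The calls of MGST2 and SULT2A1 in overTST were made without WT replicate 1, WT replicate 3 and overTST replicate 1 in turn, and the call of GSTCD between the lines was made without shTST replicate 1.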

How the results depend on the processing

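When each library was left out in turn, 5 to 7 members were called in shTST and 10 to 13 between the lines. The shares of all genes called in these fits were 10.2% to 15.7% and 26.4% to 34.9%. Under 11 other settings the members called were 5 to 7 and 11 to 13, beside 7.63% to 21.4% and 13.3% to 38.5% of all genes. In overTST the number was 9 to 14 with a library left out, the lowest without overTST replicate 4, beside 27.1% to 35.9% of all genes. Otherwise it was 9 to 16, beside 15.4% to 38.6%, with 9 for no filter on low counts and 10 with length offsets. Requiring a change of at least 1.5-fold left 0 calls in shTST and 1 in overTST, by construction. TST in overTST had a log2 fold change of 0.097 with length offsets (adjusted p = 0.201) and of 0.094 with length offsets and the replicate block (adjusted p = 0.159), the latter added after seeing the data, and neither was called; the cause was not tested. In shTST, GSTA2 and SULT2A1 were also called with upper-quartile scaling.

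Libraries with the same replicate number varied together little. The correlations of their deviations from the group means lay between −0.053 and 0.080 over 14883 genes. Replicates 1, 2 and 3 of shTST and 1 and 3 of overTST correlated best with the WT library of their number. Replicate 4 of shTST and replicates 2 and 4 of overTST did not, and the numbers were not taken to pair libraries. With a replicate block 7, 14 and 13 members were called in shTST, overTST and between the lines. The block also raised the share of all genes called, from 16.1% to 20.4% in shTST, from 33.9% to 35.8% in overTST and from 33% to 35.2% between the lines. No called member changed direction under any setting run. Across settings, 51 of the members' values lost a call and 40 gained one, while 40 values that were uncalled in both settings changed sign, at most 0.17 on the log2 scale before and 0.12 after, and 6 of these moved by more than their SE (GSTA2 and EPHX1 in overTST and GSTA4 between the lines, with length offsets). Depth limits the 7 untested members, where a library at 0 allows up to 0.136 CPM.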
